A study of Arabidopsis thaliana with 6 samples.

Results

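UGT73B5 and GSTU23 of Arabidopsis thaliana encode enzymes that join small molecules to a carrier group. UGT73B5 (AT2G15480) belongs to the UDP-glycosyltransferases, which move a sugar from a UDP-sugar onto hormones, flavonols, other secondary metabolites and foreign compounds. GSTU23 (AT1G78320) is a glutathione transferase of the tau class, a class found in plants, whose members couple the tripeptide glutathione to reactive, electrophilic molecules. The products of both reactions are more soluble than the substrates and are commonly carried into the vacuole, and in leaves several genes of both families are known to respond to oxidative and chemical stress. Each of these 2 genes had 1 probe set of its own among the 13513 probe sets paired with a single gene on the array, which held 22810 probe sets in all. The pair was chosen by its signal over all 6 arrays with these values known, so its levels are described below and carry no test.

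All plants were Columbia, grown in soil and 50 days old, with no mutant or transgenic line. Dry mature pollen was drawn from open flowers by vacuum. Hydrated pollen was shaken out of flowers into liquid growth medium, collected by centrifugation and kept as a thin layer at 25 °C for 45 min. Pollen tubes came from the same procedure with 4 h of incubation, at a mean length of about 150 µm, and were kept back on a 50 µm mesh that let ungerminated grains through. Each stage was hybridised to 2 Affymetrix ATH1 arrays, whose replicates the series calls biological. Dry collection was used for mature pollen alone and the mesh for tubes alone, so stage and handling cannot be told apart in any comparison. These are bulk samples, in which fewer cells of a type and less RNA per cell cannot be told apart.

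Signal is in arbitrary units, and each array was scaled to a similar trimmed mean. Background was taken to end at the 60th percentile of each array, which ranged from 19.7 to 34.1. All 9 pollen marker genes with a probe set of their own lay above it on every array, with signals from 117.4 to 42491.4. The leaf marker RCA (rubisco activase), the only one of 10 listed photosynthesis genes with its own probe set, read 7.9 to 47.2 and was above background on the first hydrated array (30.5) and the first tube array (47.2). Of 6 listed nectary, carpel and tapetum markers, 4 had a probe set of their own. Together they summed to 107.1 on the first tube array, 32.2 on the second, and 53.8 to 68.3 on the pollen arrays. At least 1 of the 4 was above background on every array, and 2 were on the first tube array. SWEET9 was above it on both mature arrays (48.8 and 25.8), the first hydrated array (32.5) and the first tube array (35.9). SPT was above it on both tube arrays (50.8 and 25.6) and on no pollen array. SHT was above it on the second hydrated array (29.2) alone. GSTU23 read higher on the first array of hydrated pollen and of tubes than on the second, and lower on the first mature array. The summed nectary, carpel and tapetum markers were 57.8 on both hydrated arrays. In mature pollen their sum was higher on the first array (68.3 against 53.8). The part of these markers in the values of UGT73B5 and GSTU23 was not tested.

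UGT73B5 read much the same in both pollen stages and several-fold higher in tubes. Its signal was 80.5 and 72.0 on the mature arrays, 56.4 and 69.5 on the hydrated arrays, and 414.6 and 420.6 on the tube arrays, in each case in the order of replicate number. Both tube arrays stood far above the other 4, and the hydrated arrays sat just under the mature ones. The stage means were 76.25 ± 6.01 for mature grains, 62.95 ± 9.263 after hydration and 417.6 ± 4.243 for tubes (SD, n = 2 arrays each). All 6 values were above background, at 2.05 to 2.96 times the 60th percentile in the pollen stages and at 13.16 and 21.35 times in tubes.

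The difference in UGT73B5 lay between hydrated pollen and tubes. The log2 change from mature to hydrated pollen was -0.28 ± 0.39 (SE), with -0.51 within replicate number 1 and -0.05 within number 2. From hydrated pollen to tubes it was 2.74 ± 0.39, a factor of 6.67, with 7.35 within number 1 and 6.05 within number 2. Between mature pollen and tubes the factor was 5.49, and even the lower tube array exceeded the higher mature array 5.15 times. Over all 11412 tested probe sets the median log2 change was -0.02 at hydration, -0.06 at the tube step and -0.12 between tubes and mature pollen. Ordered from the most positive change, UGT73B5 stood 349th of the 11412 at the tube step and 596th for tubes over mature pollen.

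GSTU23 read higher at each step, starting from a level at the edge of background. It read 16.8 and 32.7 in mature pollen, 76.7 and 41.5 in hydrated pollen, and 192.5 and 91.5 in tubes. The first mature array lay below its 60th percentile of 34.1 and the second above its own of 25.1, so a level in dry pollen was measured on 1 of 2 arrays. Each stage lay wholly above the one before it, although the highest mature and lowest hydrated values were only 1.27 times apart, and the highest hydrated and lowest tube values 1.19 times.

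The mean signal of GSTU23 was 24.75 ± 11.24 for mature grains, 59.1 ± 24.89 after hydration and 142 ± 71.42 for tubes (SD, n = 2 arrays each). Its log2 change was 1.27 ± 0.62 (SE) at hydration and 1.23 ± 0.62 at the tube step. The tube step gave a factor of 2.51 within number 1 and 2.2 within number 2. The hydration step gave 4.57 and 1.27, of which 4.57 rests on the mature array below background. Across both steps the factor was 5.66, with 11.46 within number 1, on the same dim array, and 2.8 within number 2. With every value below 34.1 raised to that level, the log2 change was 0.73 at hydration and 1.96 across both steps. The factors were then 2.25 within number 1 and 1.22 within number 2 at hydration, and 5.65 and 2.68 across both steps.

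**Figure D1:**
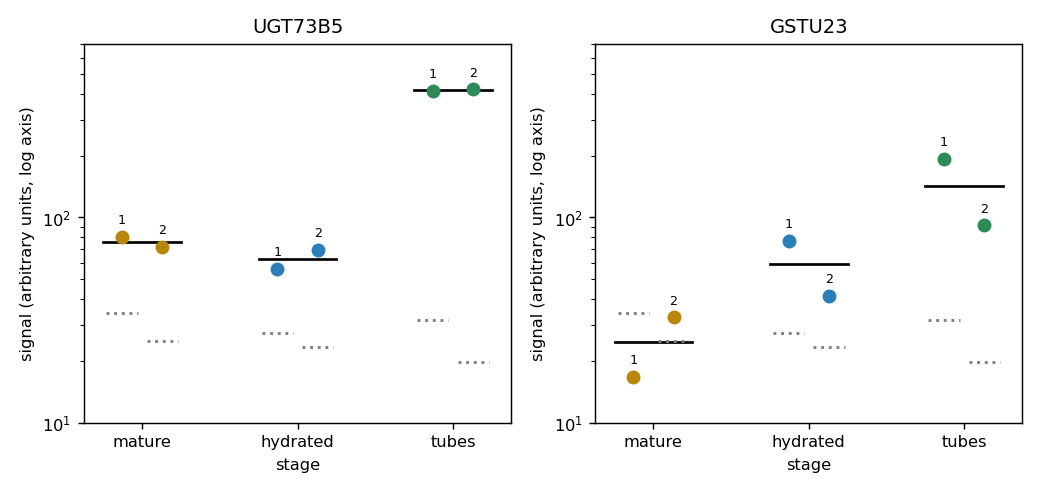
Signal of UGT73B5 (left) and GSTU23 (right) on each array, on a log axis in arbitrary units. Points are arrays with their replicate number, black bars the mean of 2 arrays, and dotted grey marks the 60th percentile of that array. UGT73B5 lies between 56.4 and 80.5 in both pollen stages and at 414.6 and 420.6 in tubes, while GSTU23 goes from 16.8 and 32.7 in mature pollen to 192.5 and 91.5 in tubes.

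Replicate arrays lay closer together for UGT73B5 than for GSTU23. With 2 arrays per stage and genes chosen on these same values, the differences are description only. The replicate arrays of UGT73B5 differed by a factor of 1.12 for mature grains, 1.23 after hydration and 1.01 for tubes. The median difference on the log2 scale between replicates, over tested probe sets within a factor of 2 of its mean, was 0.58, 0.51 and 0.42 in the same stages, against 0.16, 0.3 and 0.02 for UGT73B5 in size. The replicates of GSTU23 differed by factors of 1.95, 1.85 and 2.1, or 0.96, 0.89 and 1.07 on the log2 scale, where comparable probe sets had medians of 1.04, 0.52 and 0.42. Replicate 1 of GSTU23 was the lower array of mature pollen and the higher one of both later stages.

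Both genes were higher in tubes than in mature pollen with no overlap, as 20.8% of all tested probe sets were, and higher than in hydrated pollen, as 20.0% were. At hydration GSTU23 was higher without overlap, as 15.7% of tested probe sets were, and UGT73B5 lower without overlap, as 18.0% were. These shares are given as background only, since the genes were picked on the same values. Likeness of the 2 profiles was measured by the root mean square difference of log2 values centred on their mean over the 6 arrays, which was 0.917. GSTU23 was the 373rd most like UGT73B5 of 6510 named probe sets and UGT73B5 the 647th most like GSTU23, with a Pearson coefficient of 0.703 over 6 arrays of 3 stages.

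**Figure D2:**
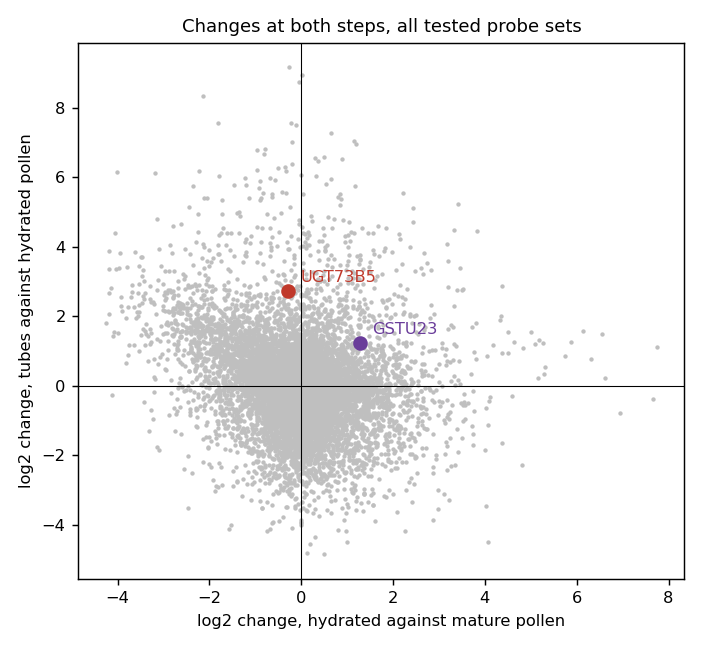
Log2 change from mature to hydrated pollen (x axis) against log2 change from hydrated pollen to tubes (y axis) for all 11412 tested probe sets (grey), with UGT73B5 in red and GSTU23 in purple. UGT73B5 lies at -0.28 and 2.74, GSTU23 at 1.27 and 1.23. Both axes use the hydrated arrays, with opposite sign, so the slope of the grey cloud is partly built in.

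Close relatives of UGT73B5 that had a probe set of their own gave little signal in these samples. Genes of the UGT73 group without one were not read here. Of 7 genes of the UGT73 group with their own probe set, 5 lay above the 60th percentile on no array, and UGT73B5 and UGT73B1 were tested. UGT73B4, the next gene along the chromosome in the reference table, read 8.6 and 1.9 in mature pollen, 5.4 and 1.9 in hydrated pollen, and 4.2 and 3.2 in tubes. All 6 of these values were below background, in tubes as in pollen. UGT73B1 read 48.2 and 23.6, then 38.9 and 2.0, then 35.4 and 4.7, with the first array of every stage the brighter one and above background. Its log2 change in tubes against mature pollen was -1.39 ± 1.57 (limma, adjusted p = 0.729). UGT73C1, UGT73C2, UGT73C7 and UGT73D1 were below background on all arrays. 

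The wider glycosyltransferase list held 63 other genes with a probe set of their own. Of these, 50 bore a UGT name or synonym in the platform annotation or reference gene table, and the rest were listed by locus. On no array did 31 of them exceed background, and 21 were tested. At hydration 0 of 21 rose and 0 fell in limma (1 at an unadjusted p under 0.05), against 0.526% of all tested probe sets that rose and 0.0526% that fell. From hydrated pollen to tubes 0 rose and 1 fell, against backgrounds of 2.54% and 2.03%. The median log2 change of the list was -0.64 at hydration and 0.17 at the tube step. In tubes against mature pollen 0 rose and 1 fell, against 4.61% and 3.29% (526 higher and 375 lower over all probe sets, or 443 and 198 when 75th percentiles were equalised), and the median log2 change of the list was -0.44 beside -0.12 for all tested probe sets. By sign, 8 of the 21 were higher in tubes than in mature pollen and 13 lower.

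The member that fell was AT2G28080, listed by its locus and without a family name in the annotation used here. It read 531.3 and 475.2 in mature pollen, 251.8 and 174.2 in hydrated pollen, and 19.0 and 56.1 in tubes, with no overlap between any stages and the first tube array below background. Its log2 change in tubes against mature pollen was -3.94 ± 0.52 (limma, adjusted p = 0.000842), a call lost without the intensity trend (adjusted p = 0.0549). At the tube step it was -2.68 ± 0.52 (limma, adjusted p = 0.015). That call was lost without tube array 1 (adjusted p = 0.136), without hydrated array 1 (0.131), without hydrated array 2 (0.0697), after equalising the 75th percentiles (0.0564), with a common floor of 34.1 (0.067) and without the trend (0.182).

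UGT74B1, which glucosylates a precursor of glucosinolates, was picked out after its values were seen. It read 2.5 and 9.7 in mature pollen, 2.5 and 9.1 in hydrated pollen, and 98.6 and 149.7 in tubes. Both tube arrays were above background and the other 4 below it. Its level in tubes was at least 4.15-fold that in mature pollen, taking the 60th percentile as the level of the dim arrays, and the test did not pass (limma, adjusted p = 0.0595). It passed without a filter on dim probe sets (limma, adjusted p = 0.044), with a common floor of 34.1 (0.0463) and with each array's own floor (0.00653). Both floors replace all 4 pollen values, so those p-values do not measure the spread between pollen replicates. UGT74B1 did not pass after equalising the 75th percentiles, after quantile normalization or without the intensity trend.

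The 6 listed glycosyltransferases above background on every array did not pass in tubes against mature pollen. The brightest, the sterol glucosyltransferase SGT, read 342.7 and 470.0 in mature pollen, 537.8 and 592.9 in hydrated pollen, and 608.0 and 909.9 in tubes. Its values went up stage by stage without overlap, and the change in tubes against mature pollen was 0.89 ± 0.34 (limma, adjusted p = 0.171). AT5G54010, which the platform annotation gives by locus and the reference gene table as UGT79B6, is known for building the flavonol glycosides of pollen. It read 158.8 to 174.8 in mature pollen, 127.5 to 270.0 in hydrated pollen and 166.8 to 182.4 in tubes. All its stages overlapped. Its change in tubes against mature pollen was 0.07 (limma, adjusted p = 0.961).

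**Figure D3:**
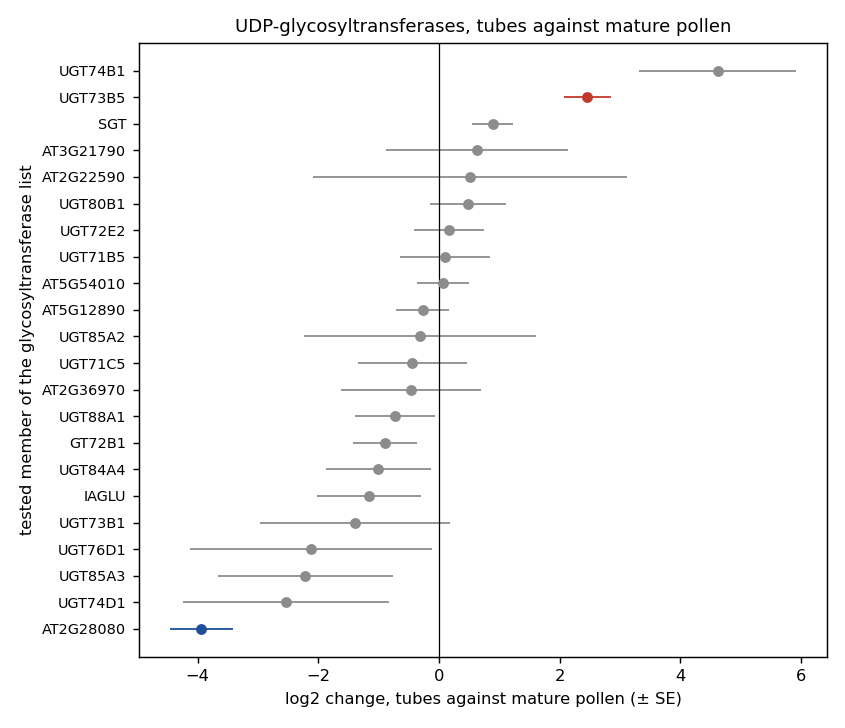
Log2 change in tubes against mature pollen (± SE from limma) for the 21 tested genes of the glycosyltransferase list and for UGT73B5 (red), which was chosen for its values. AT2G28080 (blue), at -3.94, was the list gene that passed, and grey points did not pass. UGT74B1, the grey point farthest to the positive side, is drawn at its fitted value, which rests on pollen arrays below background and is no measured fold.

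For glutathione transferases the annotation covered only part of the family. With GSTU23, 11 tau genes had a probe set of their own, of which 6 were above background on no array and 4 were tested. The neighbour GSTU22, separated from GSTU23 by a pseudogene in the reference table, read 24.3 and 31.4 in mature pollen, 21.5 and 39.6 in hydrated pollen, and 181.4 and 38.4 in tubes. The first tube array stood apart from the other 5 arrays, and the second was within the range of hydrated pollen. Its log2 change in tubes against mature pollen was 1.6 ± 0.78 (limma, adjusted p = 0.315), and 0.48 without the first tube array. GSTU22 and GSTU23 both read higher on the first tube array than on the second. Whether their probes take signal from one another was not tested.

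GSTU20 and GSTU21, of the same stretch of tau genes, stayed below background on all 6 arrays, with highest signals of 8.4 and 24.4. GSTU16 read 198.7 and 105.7 in mature pollen, 172.5 and 146.0 in hydrated pollen, and 86.6 and 44.4 in tubes. Both tube arrays were the lowest of the 6, with a log2 change against mature pollen of -1.22 ± 0.49 (limma, adjusted p = 0.203). GSTU27 read 60.2 and 78.0, then 53.7 and 56.0, then 34.9 and 19.8, again lowest in tubes (-1.38 ± 0.57, limma, adjusted p = 0.215). The values of GSTU16 and GSTU27 in tubes thus lay under those in pollen, opposite in sign to GSTU23, without passing the test. GSTU15, GSTU18, GSTU25 and GSTU28 did not exceed background on any array, and GSTU26 did so on 1 hydrated array.

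**Figure D4:**
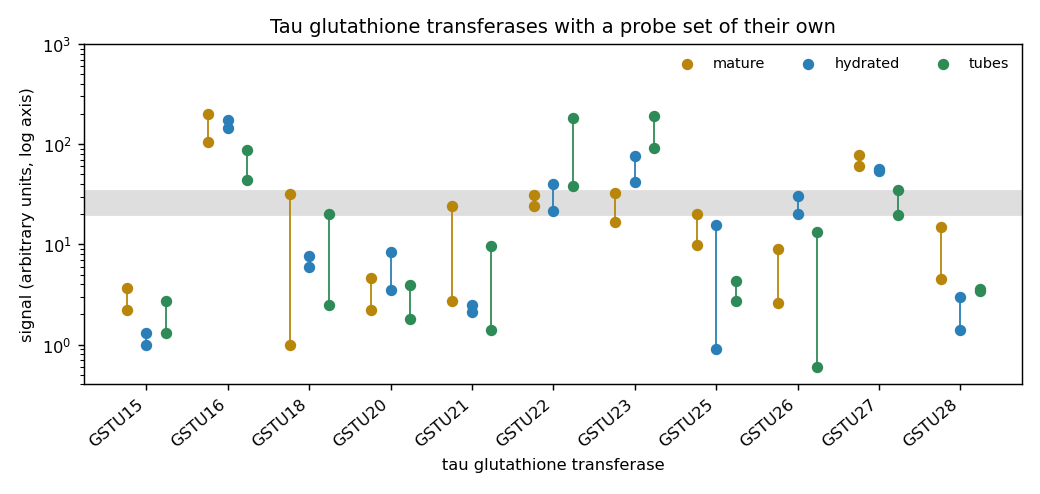
Signal of the 11 tau glutathione transferases with a probe set of their own, on a log axis in arbitrary units. Points are the 2 arrays of each stage, joined by a line, and the grey band spans the 60th percentiles of the 6 arrays, 19.7 to 34.1. The tube arrays of GSTU23 lie above the band, the first tube array of GSTU22 lies far above its other arrays, GSTU16 and GSTU27 have their lowest values in tubes without passing the test, and GSTU15 and GSTU20 lie below the band throughout.

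Over all classes, 13 glutathione transferases other than GSTU23 had their own probe set and 4 were tested. In limma 0 of 4 rose and 0 fell at hydration (0 at an unadjusted p under 0.05), at the tube step (1), or between tubes and mature pollen (2). The shares of all tested probe sets that rose were 0.526%, 2.54% and 4.61%, and those that fell 0.0526%, 2.03% and 3.29%. The median log2 change was -0.12, -0.39 and -1.03 in that order. The tested gene outside the tau class was GSTL3 of the lambda class, which read 66.5 and 74.3 in mature pollen, 32.3 and 32.5 in hydrated pollen, and 56.6 and 27.3 in tubes. Its mature arrays were the highest of the 6, with a change in tubes against mature pollen of -0.84 (limma, adjusted p = 0.52). Of 20 listed genes of glutathione synthesis, recycling, peroxidases and breakdown, 3 had a probe set of their own. Those tested were the reductases GR and GR1, both low and variable. GR read 43.3 and 9.2, then 51.7 and 30.3, then 28.3 and 37.9, and 0 of these 2 tested genes passed in any comparison (0 at an unadjusted p under 0.05).

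Among 14 listed genes known to respond to electrophiles and foreign compounds, 4 had a probe set of their own and all 4 were tested. At hydration 0 passed (limma, 0 at an unadjusted p under 0.05), and in tubes 1 rose against either pollen stage and 0 fell. Of all tested probe sets 0.526% rose and 0.0526% fell at hydration, 2.54% and 2.03% at the tube step, and 4.61% and 3.29% between tubes and mature pollen. The median log2 change of the 4 was 0.24 in tubes against mature pollen. The gene that rose was ALDH7B4, an aldehyde dehydrogenase of stress responses. It read 177.1 and 143.8 in mature pollen, 285.1 and 180.2 in hydrated pollen, and 3717.8 and 3069.6 in tubes. Its log2 change was 0.51 ± 0.34 at hydration (limma, adjusted p = 0.921) and 3.9 ± 0.34 at the tube step (limma, adjusted p = 0.000309), the latter call being lost without the intensity trend (adjusted p = 0.0682). AER, an alkenal reductase, read 176.5 and 13.4, then 176.2 and 28.2, then 97.6 and 54.7. The first array of AER was the brighter in every stage, and its change in tubes against mature pollen was 0.59 (limma, adjusted p = 0.852), turning from 2.45 without the first mature array to -1.27 without the second. AT5G16980 read 53.0 and 37.4, then 30.9 and 14.3, then 3.9 and 14.2, with both tube arrays below background. Its change in tubes against mature pollen was -2.58 ± 1.03 (limma, adjusted p = 0.196). AT2G21640 read 33.9 and 29.9, then 8.6 and 10.1, then 87.4 and 10.1. Neither gene passed in any comparison.

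Beta-glucosidases split sugars from glycosides, the reverse of what glycosyltransferases do. Of 22 with a probe set of their own, 7 were tested. At hydration 0 passed (limma, 0 at an unadjusted p under 0.05), where 0.526% of all tested probe sets rose and 0.0526% fell. In tubes 1 rose and 0 fell against either pollen stage. Over all tested probe sets 2.54% rose and 2.03% fell at the tube step, and 4.61% and 3.29% between tubes and mature pollen. The median log2 change of the 7 was -0.26 in tubes against mature pollen. The gene that rose was BGLU15, at 44.2 and 41.9 in mature pollen, 84.3 and 72.5 in hydrated pollen, and 292.6 and 312.8 in tubes. Its stages did not overlap, and the change in tubes against mature pollen was 2.81 ± 0.41 (limma, adjusted p = 0.00174). At the tube step it was 1.95 ± 0.41 (limma, adjusted p = 0.0233), a call lost when any 1 of the hydrated or tube arrays was left out (adjusted p from 0.106 to 0.162). BGLU36, the brightest of the list, read 197.5 to 523.1 over the 6 arrays and its stages overlapped (-0.34 in tubes against mature pollen, limma, adjusted p = 0.785, and 0.37 without the first tube array).

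Cytochromes P450, which often add the oxygen that is later conjugated, had 23 genes with a probe set of their own, most of them CYP71B genes. P450 genes without one were not read. The highest signal of the 23 was 48.3, and 4 were tested, of which 0 passed in any comparison (limma, 0 at an unadjusted p under 0.05). The shares of all tested probe sets that rose and fell were 0.526% and 0.0526% at hydration. At the tube step they were 2.54% and 2.03%, and between tubes and mature pollen 4.61% and 3.29%. The 2 MATE carriers of the DTX series found with a probe set of their own stayed under background, with a highest signal of 23.9. Other genes of that series were not read. DFR was the only one of 6 listed genes of flavonoid synthesis with its own probe set. It read 38.8 and 37.8 in mature pollen, 5.8 and 17.3 in hydrated pollen, and 36.1 and 26.9 in tubes. DFR did not pass in any comparison (limma, unadjusted p under 0.05 at hydration alone). No gene listed for the ABCC transporters, which carry glutathione conjugates into the vacuole, or for the TGA factors, which bind stress elements of GST promoters, had a probe set matched to it alone here, so both lists gave 0 genes to test.

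The named probe sets most like UGT73B5 over the 6 arrays were AT4G25680, AT4G13190, AT1G29200, AT4G02320 and AT3G09590, at root mean square differences of 0.299 to 0.343 and Pearson coefficients of 0.964 to 0.996. AT4G25680 read 55.7 and 52.7 in mature pollen, 49.9 and 49.7 in hydrated pollen, and 204.5 and 214.2 in tubes. AT3G09590 read 71.4 and 61.2, then 90.9 and 75.4, then 553.1 and 593.8. In both, the tube arrays stood apart and the pollen stages lay close together. AT4G02320 was above background on the tube arrays only. Being selected for likeness to a chosen gene, these carry no test.

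The profiles most like GSTU23 were those of AT2G32050, AT4G13270, AT5G15870, AT5G49580 and AT3G11290, at differences of 0.266 to 0.344 and coefficients of 0.956 to 0.994. AT4G13270 read 18.2 and 19.5 in mature pollen, 71.4 and 35.3 in hydrated pollen, and 135.5 and 68.7 in tubes. AT5G49580 read 33.3 and 51.2, then 78.1 and 49.4, then 200.8 and 106.1. These genes shared with GSTU23 the higher first array in hydrated pollen and in tubes, which the measure of likeness takes in along with the stages. AT2G32050 exceeded background on 2 arrays and AT3G11290 on 3.

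**Figure D5:**
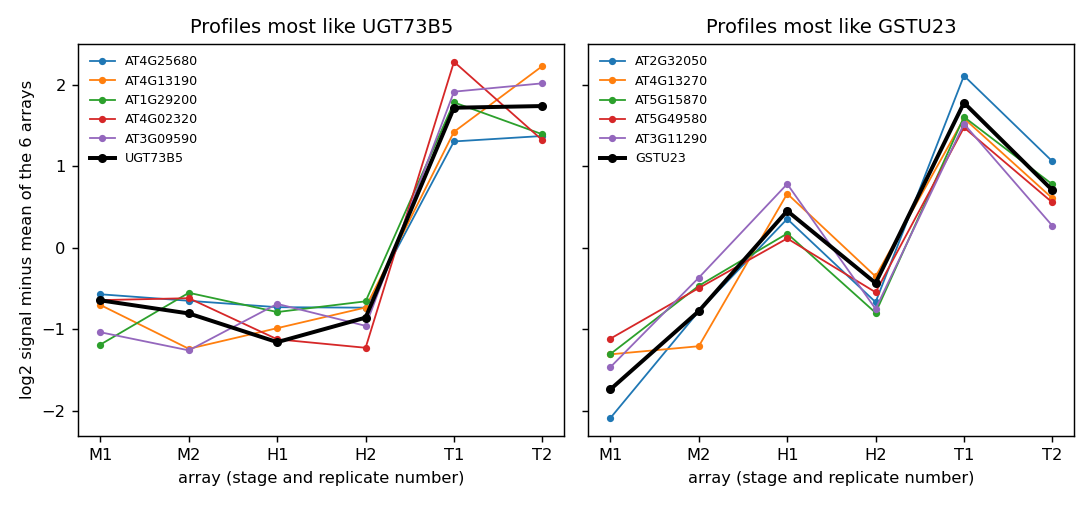
Log2 signal minus the mean over the 6 arrays for UGT73B5 (left) and GSTU23 (right), in black, with the 5 named probe sets of the most similar profile in colour. M, H and T are mature pollen, hydrated pollen and tubes, followed by the replicate number. The UGT73B5 group is flat over 4 arrays and high on both tube arrays, whereas the GSTU23 group is higher on the first than on the second array in hydrated pollen and tubes.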

How the data were processed

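The authors deposited 1 table of linear signal intensity for 6 ATH1 arrays, and per the submitters' processing notes GCOS 1.0 and MAS5 were used. Detection calls were not used here. Each array received 20 µg of cRNA made from 8 µg of RNA, per the labels' protocols. The 64 control probe sets were left out, and 1 value of 0 was set to 0.1 before taking log2. Testing was limited to the 11412 probe sets above the 60th percentile on 2 or more of the 6 arrays. limma 3.58.1 in R 4.3.3 was fitted over all arrays with a mean per stage and an intensity trend (3 residual degrees of freedom, two-sided), with Benjamini-Hochberg adjustment over the 11412 and a threshold of 0.05. The fit was tested on simulated data with independent noise and large changes planted in bright probe sets only. That test does not cover the mean levels of UGT73B5 and GSTU23 over the 6 arrays. Alternatives were other scalings, floors on dim values, no filter, no trend, a replicate block and leaving out each array. SE are from this fit. With 2 arrays per stage, their number limits the precision.

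Names came from the platform annotation and a TAIR10.1 gene table, and 8730 probe sets had none, so a gene not mentioned may be on the array. No build is given for the array, so no coordinates are printed. The 2 genes and all lists were chosen with earlier results of these data known. Named were the 2 genes, their UGT73 and tau relatives, list members that passed, the brightest of a list and the 5 most similar profiles. UGT74B1, AT5G54010, GSTL3 and AER were added after their values were seen.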

Additional observations from a re-analysis of the deposited data

How the results depend on the processing

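Of the 6 log2 changes of UGT73B5 and GSTU23, none turned sign under the 2 other scalings or the 2 floors. Leaving out a single array could not turn a sign, since the stages of both genes did not overlap. The replicate block leaves these changes as they are, so it could not turn one either. Over all these settings 1 change moved by more than the spread between replicates. It was UGT73B5 in tubes against mature pollen, 2.31 after quantile normalization against 2.46. Leaving out single arrays gave UGT73B5 -0.43 to -0.13 at hydration, 2.59 to 2.89 at the tube step and 2.38 to 2.54 across both, and gave GSTU23 0.79 to 1.75, 0.70 to 1.77 and 1.96 to 3.04. Over all probe sets, in the order hydration, tube step and tubes against mature pollen, 66, 522 and 901 passed. Without the intensity trend 0, 0 and 228 passed (731, 1494 and 1885 at an unadjusted p under 0.05). With each array's own 60th percentile as a floor 103 passed at hydration and 870 at the tube step. With a common floor, added after seeing the data, these were 0 (836 at an unadjusted p under 0.05) and 346. With a common 75th percentile 301 passed at the tube step. Leaving out single arrays gave 27 to 90, 85 to 660 and 349 to 757, lowest without hydrated array 2 at hydration and without tube array 1 in both other comparisons. In the glycosyltransferase list, where 1 gene passed at the tube step, 0 did with the common 75th percentile, the common floor or no trend, 2 with the floor of each array, and 0 to 2 without single arrays. In tubes against mature pollen, where 1 passed, 2 did with either floor or no filter, 0 without the trend and 1 to 2 without single arrays. In the beta-glucosidase list the 1 call at the tube step became 0 with the common 75th percentile or no trend, and 0 to 1 without single arrays, and the call of ALDH7B4 at that step became 0 without the trend. The causes were not tested.

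The replicate numbers are not said to mark a shared origin. Deviations of same-numbered arrays from their stage means had a correlation of 0.174 between mature and hydrated pollen, 0.185 between hydrated pollen and tubes and 0.221 between mature pollen and tubes, across 11412 probe sets. With the replicate block 421, 1646 and 2159 probe sets passed. The glycosyltransferase list then had 1, 2 and 4 calls, and the glutathione transferase list 1 at the tube step (GSTU16, adjusted p = 0.00923) and 1 between tubes and mature pollen (GSTU16, adjusted p = 0.0152). SGT (0.89, adjusted p = 0.00391) and UGT74B1 (adjusted p = 0.0145) also passed between tubes and mature pollen with the block, and UGT74B1 at the tube step (adjusted p = 0.0166). Of 6 called changes of named list genes, 6 were kept with the block, which added 5, and 2 were kept without the trend.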
